A study of Mus musculus with 6 samples.

Results

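The Hox genes of mouse aorta were described from bulk RNA sequencing of 6 libraries, as a readout of the position along the body axis that the tissue carried. Members were all protein-coding genes with a symbol of Hoxa, Hoxb, Hoxc or Hoxd followed by digits, which gave 39 of the 55487 genes measured. In the GRCm38 mouse genome they stand in 4 clusters: 11 Hoxa genes on chromosome 6, 10 Hoxb genes at chr11:96194316-96368256, 9 Hoxc genes at chr15:102921103-103036852 and 9 Hoxd genes at chr2:74668310-74765142. The control group was 3 libraries of aorta labelled with the LoxP genotype, a floxed Ogt gene. The knockout group was 3 libraries of aorta labelled as lacking Ogt in smooth muscle cells (SMC), with titles that carry SM22 and ∆Ogt. SM22 is another name for transgelin, a protein of smooth muscle made by Tagln, and the control titles carry it too. The Cre line, the age and sex of the mice, the number of mice in a library and the aortic segment are absent from the labels. Since nothing says that libraries came from separate mice, p-values reflect only library-to-library spread, which may be technical.

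Hox genes encode homeodomain transcription factors that give cells their position from head to tail. Within a cluster the genes are numbered by paralog group, and low numbers are switched on further towards the head in the embryo than high numbers, in the order of the genes on the chromosome. Adult vessel wall cells, smooth muscle and fibroblasts among them, keep part of this code, so that upstream and downstream stretches of the aorta differ in which Hox genes they express. Ogt encodes O-GlcNAc transferase, an enzyme that adds a single sugar to nuclear and cytoplasmic proteins.

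Most of the Hox level came from the middle genes of the clusters: paralog groups 4 to 8 held 68.0% to 71.7% of it in each library. Of the 39 genes, 28 had enough counts to be tested, 6 had counts too low to test (Hoxa13, Hoxc11, Hoxc13, Hoxd10, Hoxd11 and Hoxd13), and Hoxb1, Hoxb13, Hoxc12, Hoxd1 and Hoxd12 had 0 counts in all 6 libraries. A count of 0 over the 6 libraries allows up to 3 counts, or 0.0390 CPM (counts scaled to library size), for counting error only. In the knockout libraries the weight lay further along the numbers: genes of paralog groups 1 to 3 held 15.5% to 16.7% of the summed Hox level against 21.4% to 24.3% in controls, and genes of groups 9 to 13 held 11.5% to 14.2% against 7.45% to 7.76%. Only Hoxc10 passed the test, and it rose 1.21 ± 0.24 on the log2 scale (SE, 3 libraries a group).

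Total counts ran from 3038782 in control 2 to between 11845644 and 18218385 in the other 5 libraries. Control 2 also stood apart on the first principal component (101.8 against -36.6 to -2.72) and in its mitochondrial ribosomal RNA, 10.2% of its counts against 0.491% to 0.823%. The targeted gene followed the labels: Ogt stood at 177.4, 183.2 and 149.97 CPM in controls and at 93.3, 73.5 and 70.9 CPM in knockouts, and fell by 1.10 ± 0.15 on the log2 scale (SE, edgeR adjusted p = 0.0214). The smooth muscle actin gene Acta2 was between 4248 and 6383 FPKM (fragments divided by gene length and by library total) in every library. Hox counts summed to 6674, 893 and 4845 in controls and 4508, 6436 and 6555 in knockouts, so control 2 measured Hox genes with the fewest reads. Intervals and limits for counts cover counting error only.

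Levels of different genes were compared in FPKM, which divides by gene length. The summed FPKM of the 39 genes was 142.5, 85.0 and 108.9 in controls and 111.8, 109.0 and 105.6 in knockouts. Control 1 was the highest and control 2 the lowest, with all 3 knockouts between them. In this bulk tissue, fewer cells that express a Hox gene and less of its RNA per cell cannot be told apart.

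**Figure D1:**
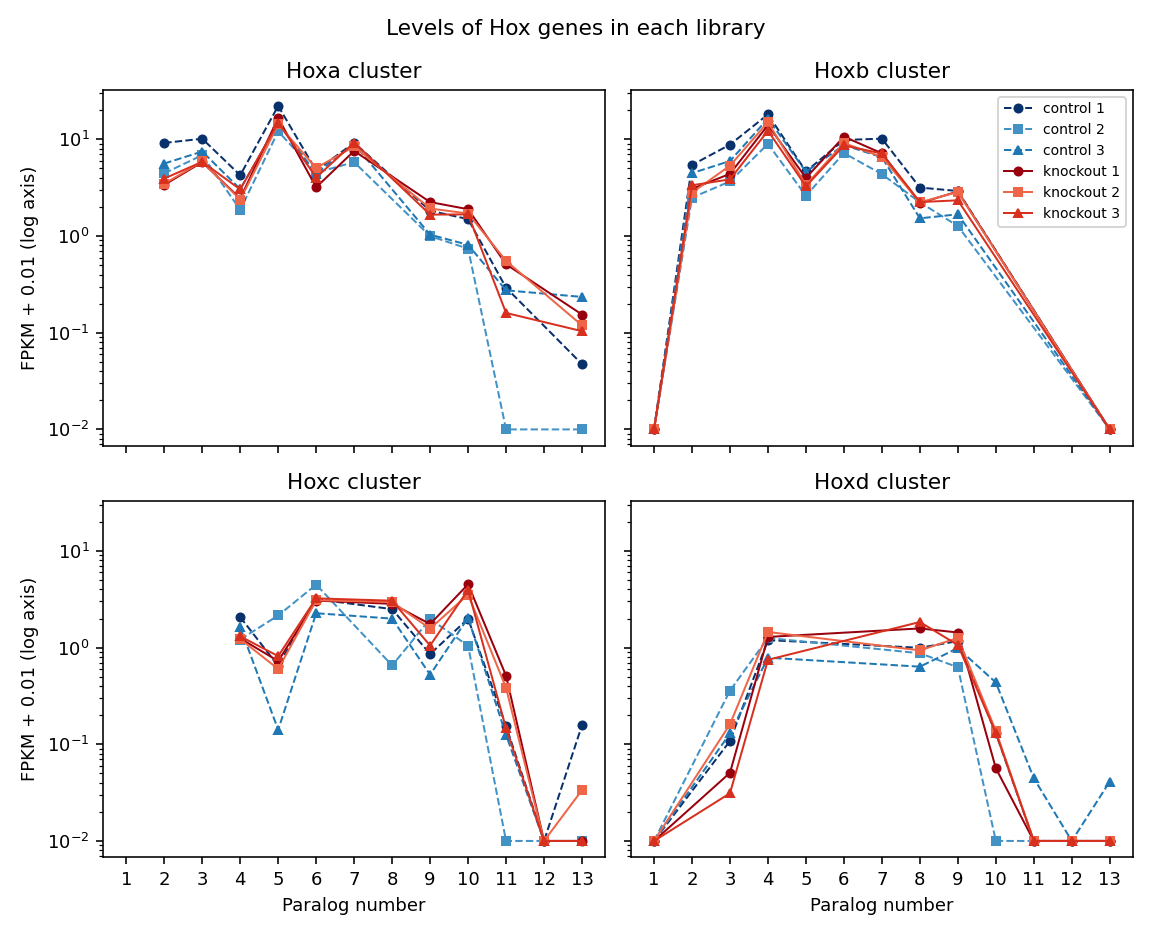
Levels of Hox genes (FPKM plus 0.01, log axis) against paralog number, 1 panel per cluster and 1 line per library, with controls dashed in blue and knockouts solid in red. Points at the bottom of a panel are genes listed at 0; Hoxa5 and Hoxb4 form the peaks of their clusters, and the level drops beyond paralog number 10.

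The highest level belonged to Hoxa5, a gene of the middle of its cluster with known roles in lung and vascular development, at 22.2, 12.1 and 14.6 FPKM in controls and 16.6, 14.3 and 14.9 FPKM in knockouts. Hoxb4, best known from blood-forming stem cells, followed at 18.1, 8.98 and 16.4 against 14.05, 15.1 and 12.3 FPKM. In both genes the knockouts lay inside the control range, with control 1 the highest library. Hoxb6 was the third at 9.86, 7.21 and 8.73 FPKM in controls and 10.7, 9.16 and 8.64 in knockouts. Hoxa7 stood at 9.22, 5.81 and 8.94 against 7.59, 8.45 and 9.27 FPKM. The groups overlapped in these 2 genes as well, and control 2 was the lowest library in each.

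Among the next genes by level, Hoxb7 was at 10.2, 4.36 and 6.52 FPKM in controls and 7.17, 6.57 and 7.14 in knockouts. Hoxa6 was at 4.75, 4.52 and 4.42 against 3.19, 5.05 and 4.02 FPKM, and Hoxb5 at 4.65, 2.60 and 4.61 against 3.99, 3.37 and 3.26 FPKM. All 3 are middle genes whose groups overlapped. The 7 middle genes named so far had log2 fold changes from -0.16 (Hoxb5) to 0.15 (Hoxb6), and edgeR adjusted p from 0.553 to 0.975. The other 3 of the 10 highest, Hoxa3, Hoxb3 and Hoxa2, belong to the front of their clusters and are described below.

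By cluster, Hoxa genes held 43.5% to 45.1% of the summed Hox FPKM in controls and 39.8% to 42.9% in knockouts, without overlap on this scale. Hoxb genes held 38.6% to 45.8% and 40.8% to 43.5%. Hoxc genes held 8.05%, 13.5% and 7.94% in controls and 13.04%, 12.2% and 12.8% in knockouts, so that control 2 alone among controls was at the knockout level. Hoxd genes held 2.49%, 3.62% and 2.75% against 3.90%, 3.58% and 3.56%, with control 2 again inside the knockout range. The Hoxa and Hoxb clusters thus carried most of the level in every library. The gap between groups in the Hoxa share depended on the setting. From raw counts this share was 43.6% to 44.2% in controls and 41.7% to 44.5% in knockouts, with knockout 3 the highest library. The groups also overlapped when genes below 10 counts in any library were dropped, and when Hoxa3, Hoxc5 and Hoxd3 were left out. Knockout 3 was above control 3 in both cases.

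For comparison between groups, each gene was tested with edgeR's quasi-likelihood test over all 16139 genes with enough counts, and its levels are given in CPM on a library size adjusted by the trimmed mean of M values (TMM). Hoxc10 was the 1 gene of 28 past an adjusted p of 0.05 (3.57%), beside 3.45% of all genes tested. The call was 1 of 28 higher (1.9% of all genes) and 0 of 28 lower (1.56% of all genes). DESeq2 and limma-voom also called Hoxc10 alone among Hox genes, beside 9.95% and 4.73% of all genes. At an unadjusted p under 0.05 there were 6 of 28 (21.4%), Hoxa2 and Hoxa3 lower and Hoxa9, Hoxa10, Hoxc10 and Hoxd8 higher, beside 22.7% of all genes (11.5% higher and 11.3% lower). Levels did not overlap between groups in 6 of 28 (21.4%), Hoxa2, Hoxa3 and Hoxc4 lower and Hoxa10, Hoxc8 and Hoxc10 higher, beside 31.8% of all genes (16.9% higher and 14.8% lower). The share of Hox genes called was thus close to the background, and the median log2 fold change of the 28 was -0.04 beside -0.01 for all genes.

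What differed along the cluster was the direction of the fold change. The 6 tested genes of paralog groups 1 to 3 all had log2 fold changes below 0, with -1.15 the lowest and a median of -0.45. In groups 4 to 8, 10 of 15 were below 0 and 5 above, with a median of -0.04. The 7 tested genes of groups 9 to 13 all had values above 0, from 0.40 to 1.21 with a median of 0.60. Beside these, 51.3% of all tested genes were below 0 and 48.7% above. The directions of the front and end genes were the same in each of 13 other fits (other scalings, filters and tests, a replicate block, and each library left out), with 4 and 4 genes tested where at least 10 counts were required in every library. All these fits reuse the same libraries, so their agreement is no independent support. Only 1 of the front and end genes passed the test on its own, and 9 members of groups 9 to 13 were not among the 7. The counts therefore describe the tested genes alone.

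Across the 28 tested genes the log2 fold change correlated with the paralog number at a Pearson r of 0.87 and a Spearman rho of 0.90. Within clusters r was 0.94 over 10 Hoxa genes, 0.86 over 8 Hoxb genes, 0.96 over 6 Hoxc genes and 0.80 over 4 Hoxd genes. The genes share the same 6 libraries, neighbours in a cluster can share reads and regulation, and they are not independent replicates.

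**Figure D2:**
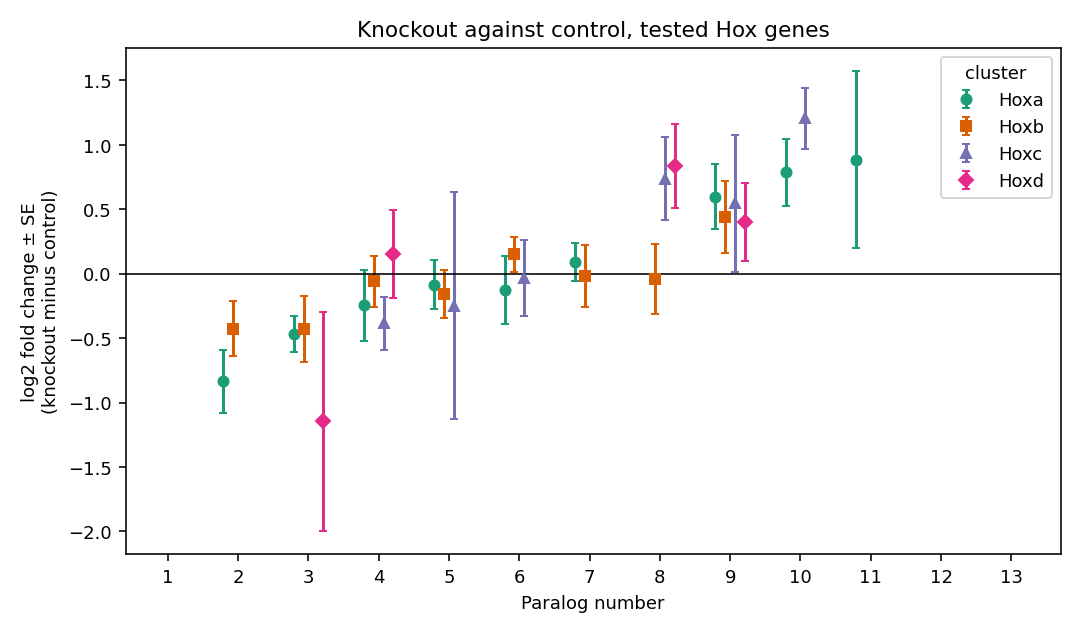
Log2 fold change (knockout minus control, edgeR) of tested Hox genes against paralog number, coloured by cluster, with bars of 1 SE. Values lie below 0 at numbers 2 and 3 and above 0 from number 9 on; Hoxc5 and Hoxd3 have the widest bars.

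At the front of the Hoxa cluster, Hoxa2, which patterns the hindbrain and the second pharyngeal arch, stood at 15.4, 8.90 and 9.38 CPM in controls and at 6.04, 6.23 and 6.92 CPM in knockouts. Every control library lay above every knockout, and control 1 was far above the other controls. The log2 fold change was -0.84 ± 0.25 (SE, edgeR adjusted p = 0.103), which did not pass. Hoxa3, needed for the third pharyngeal arch and the carotid vessels, thymus and parathyroid that form from it, was at 62.1, 50.1 and 45.5 CPM against 37.9, 38.7 and 37.6 CPM. Its groups did not overlap either, and the 3 knockouts lay close together, but the fold change of -0.47 ± 0.14 did not pass (edgeR adjusted p = 0.108). The Hoxa3 entry runs across Hoxa4, Hoxa5 and Hoxa6 on the same strand, so reads of these genes may be shared between their counts.

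Hoxb3, the paralog of Hoxa3, was at 50.1, 24.8 and 33.7 CPM in controls and 26.6, 32.5 and 23.0 in knockouts. Controls 1 and 3 were above all knockouts, control 2 was among them, and the groups so overlapped, with a log2 fold change of -0.43 ± 0.26 (edgeR adjusted p = 0.360). Hoxb2 had a similar fold change with overlapping groups, -0.42 ± 0.21 (edgeR adjusted p = 0.287). Hoxd3 rested on 4 to 27 counts a library and had a log2 fold change of -1.15 ± 0.85. None of these 3 genes passed the test.

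At the other end, Hoxc10 (chr15:102966796-102971893, plus strand), a gene of the lumbar region and hindlimb, stood at 3.57, 2.22 and 3.63 CPM in controls and at 8.68, 6.82 and 7.47 CPM in knockouts. All knockout libraries were above all controls, and the 2 higher controls, which had the deeper libraries, nearly coincided. These levels came from 52, 6 and 50 counts against 102, 116 and 137, and the exact 95% Poisson intervals reached 4.84 CPM at most in a control and 5.64 CPM at least in a knockout. The rise of 1.21 ± 0.24 had an edgeR adjusted p of 0.0431, and DESeq2 and limma-voom gave adjusted p of 0.00588 and 0.0386. With control 2 left out the edgeR adjusted p was 0.0370, but without any 1 of the other 5 libraries it was 0.0740 to 0.198, with log2 fold changes of 1.13 to 1.295. The Hoxc5 entry runs across Hoxc6, Hoxc8, Hoxc9 and Hoxc10 on the same strand, and how shared reads were counted is not given in the sources used here.

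Hoxa10, known from the uterus, the lumbar spine and the hindlimb, was at 9.49, 5.56 and 5.09 CPM in controls and 12.8, 11.6 and 11.2 CPM in knockouts. The groups did not overlap, although control 1 came close to the lowest knockout. The log2 fold change of 0.79 ± 0.26 did not pass (edgeR adjusted p = 0.132). Hoxa9, its neighbour and a gene of blood and limb development, was singled out after its values were seen: it was at 12.6, 8.16 and 7.05 CPM against 16.5, 14.2 and 12.1 CPM, with control 1 above knockout 3 and an edgeR adjusted p of 0.212.

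The regions just before the starts of Hoxa2 and Hoxa10 are shown because these genes of 1 cluster lay on opposite sides, lower and higher, in every knockout library. Each is 250 bases read 5′ to 3′ on the minus strand, the strand of the gene, from the RefSeq annotation of GRCm38.p6, at chr6:52164832-52165081 for Hoxa2 and chr6:52240855-52241104 for Hoxa10. Hox proteins bind DNA together with the cofactors Pbx and Meis, so capitals mark TGATNNAT, a site shape of Pbx and Hox pairs, and TGACAG, that of Meis and Prep proteins, searched on both strands.
Hoxa2: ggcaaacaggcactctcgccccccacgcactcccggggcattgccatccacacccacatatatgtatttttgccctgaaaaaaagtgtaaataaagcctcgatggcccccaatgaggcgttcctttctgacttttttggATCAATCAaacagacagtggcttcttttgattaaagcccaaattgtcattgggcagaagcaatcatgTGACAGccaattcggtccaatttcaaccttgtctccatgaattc
Hoxa10: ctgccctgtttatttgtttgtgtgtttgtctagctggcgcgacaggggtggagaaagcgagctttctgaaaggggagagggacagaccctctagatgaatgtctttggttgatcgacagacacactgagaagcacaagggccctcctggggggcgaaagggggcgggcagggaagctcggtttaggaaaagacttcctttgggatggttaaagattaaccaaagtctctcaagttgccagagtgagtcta

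The Hoxa2 window held TGATNNAT once, on the opposite strand (ATCAATCA as printed) at 111 bases before the start, and TGACAG once at 44 bases before it, with no overlap between them. The Hoxa10 window held neither set of letters. TGATNNAT was in 7.68% and TGACAG in 15.9% of 32851 RefSeq windows of the same length. Of 24 windows matched to 22 Hox genes, 4 held TGATNNAT (Hoxa2, Hoxb1, Hoxb8 and Hoxd11) and 2 held TGACAG (Hoxa2 and Hoxa3). Hoxb1 was at 0 counts and Hoxb8 had nearly equal group means, so genes with the first set of letters had no direction in common. A match of letters is a description and no evidence of binding.

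The remaining end genes were low. Hoxb9 was at 7.90, 4.08 and 4.51 CPM in controls and 8.34, 8.29 and 6.65 in knockouts, with control 1 above knockout 3. Hoxc9 was at 2.41, 6.67 and 1.45 against 5.27, 4.76 and 3.11 CPM, and Hoxd9 at 2.34, 1.48 and 1.96 against 3.06, 2.71 and 2.24 CPM. In these 3 paralogs of group 9, genes of the rib cage and lower trunk, 1 control reached into the knockout range each time, and in Hoxc9 control 2 was the highest library on 18 counts. Hoxd8 was at 4.61, 4.82 and 2.91 CPM against 7.83, 4.65 and 8.997 CPM, with knockout 2 at the control level. Its fold change of 0.84 ± 0.33 did not pass (edgeR adjusted p = 0.184).

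Hoxa11, a gene of the forearm, uterus and kidney, had 17, 0 and 15 counts in controls and 26, 41 and 12 in knockouts, and the groups overlapped. Hoxa13, of the most caudal body and the digits, had 3, 0 and 17 counts against 10, 11 and 10. Hoxc11 had 4, 0 and 3 counts against 12, 13 and 5. Hoxc11 was at 0.275, 0 and 0.218 CPM in controls and 1.02, 0.765 and 0.273 CPM in knockouts, so that control 1 and knockout 3 were level. In the other direction, Hoxd10 had 3, 0 and 10 counts in controls and 1, 4 and 4 in knockouts, Hoxc13 had 5, 0 and 0 against 0, 1 and 0, and Hoxd11 and Hoxd13 had 2 counts and 1 count, all in control 3. The untested genes therefore had no shared direction.

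**Figure D3:**
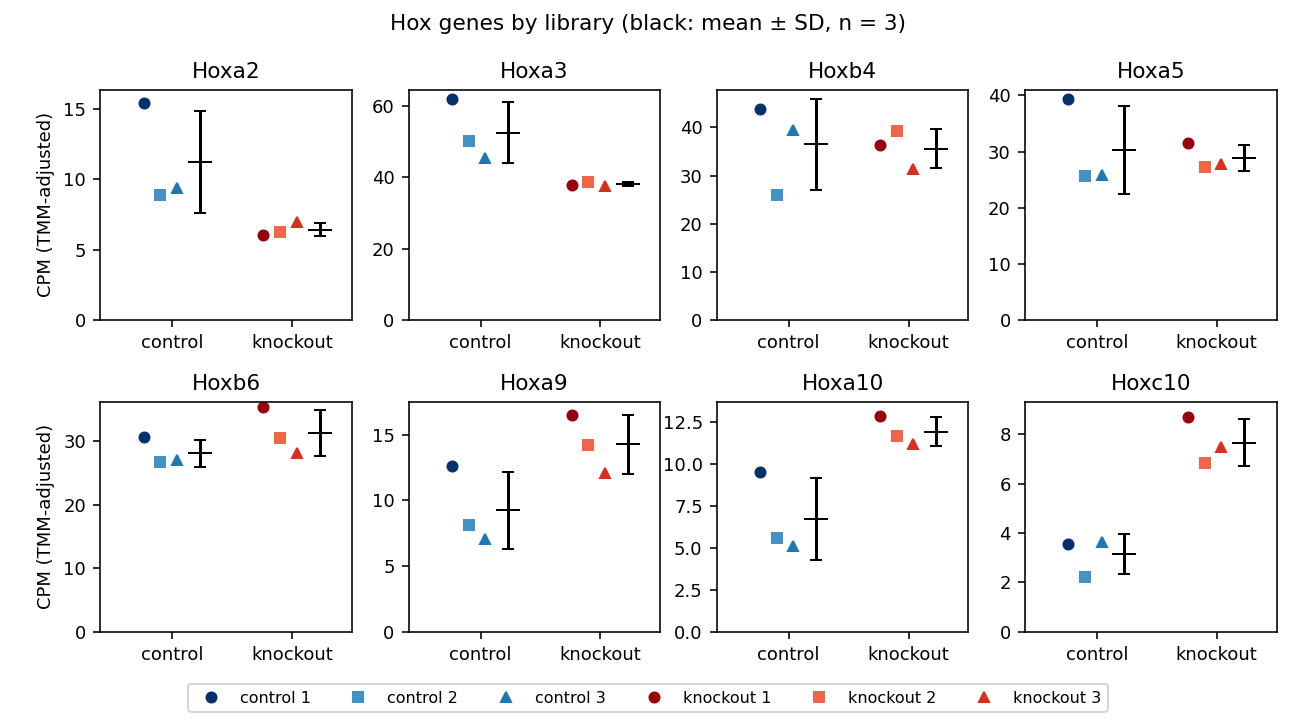
CPM (TMM-adjusted) of 8 Hox genes in each library, with the group mean and SD in black (n = 3); axes start at 0. Hoxa2 and Hoxa3 are lower and Hoxa10 and Hoxc10 higher in all 3 knockouts than in all 3 controls, while Hoxa5, Hoxb4, Hoxb6 and Hoxa9 overlap.

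Control 2 stood apart from the other controls in the Hoxc cluster. It was the highest of the 6 libraries for Hoxc5 (8.53 CPM against 0.436 to 2.84), Hoxc6 (15.2 against 6.397 to 9.65) and Hoxc9 and the lowest for Hoxc8 (2.97 against 7.63 to 12.4), on 23, 41, 18 and 8 counts. Hoxc8, a gene of the thoracic level, was 12.1 ± 0.38 CPM in knockouts and 6.74 ± 3.42 in controls (SD, n = 3), and its log2 fold change of 0.74 ± 0.32 did not pass (edgeR adjusted p = 0.223). Hoxc4, the first gene of its cluster, was 5.15 ± 0.12 CPM in knockouts and 6.60 ± 1.24 in controls, and its groups did not overlap (edgeR adjusted p = 0.316). Hoxc4, Hoxc5, Hoxc6 and Hoxc8 were singled out after their values were seen. Without control 2, both remaining controls lay below all knockouts in Hoxc6, Hoxc8, Hoxc9 and Hoxc10, and above them in Hoxc4. Hoxc5 still overlapped, at 2.13 and 0.436 CPM against 2.55, 2.12 and 2.84 CPM. The share of all genes that separates with control 2 left out was not worked out, and it was 31.8% with all libraries. These separations are therefore no result about the Hoxc genes.

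The position of the Hox level in a library was put into 1 number, the mean paralog number weighted by FPKM. It was 5.10, 5.22 and 5.12 in controls and 5.69, 5.60 and 5.61 in knockouts, with means of 5.15 ± 0.06 and 5.63 ± 0.05 (SD, n = 3). All knockouts lay above all controls, and the gap of 0.49 was several times the SD within a group. Control 2, despite its depth, lay close to the other controls. This number is a description of the list and has no test of its own.

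Taken cluster by cluster, the weighted mean was 4.75, 4.82 and 4.90 for Hoxa genes in controls and 5.32, 5.35 and 5.22 in knockouts. For Hoxb genes it was 4.99, 5.12 and 4.82 against 5.23, 5.13 and 5.21. For Hoxc genes it was 7.09, 6.59 and 7.25 against 7.94, 7.78 and 7.65. Knockouts were above controls in all 3 clusters, by the least in Hoxb, where control 2 and knockout 2 nearly coincided. The separation did not hold under every setting: over the Hoxc genes with at least 10 counts in each library, the means were 5.74, 6.458 and 5.61 against 6.457, 6.39 and 6.09, with control 2 at the top, and from raw counts the Hoxb mean of control 2 (4.8203) was just above that of knockout 2 (4.8196). Hoxd genes, at 6.92, 6.01 and 7.46 against 7.13, 6.71 and 7.53, overlapped between groups.

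The middle of the clusters took nearly the same share in all libraries. Paralog groups 4 to 8 held 68.0%, 70.8% and 70.0% of the summed Hox FPKM in controls and 70.3%, 70.4% and 71.7% in knockouts. Groups 1 to 3 held 24.3%, 21.4% and 22.6% against 15.5%, 16.7% and 16.7%. Groups 9 to 13 held 7.68%, 7.76% and 7.45% against 14.2%, 12.8% and 11.5%. The groups differed in the front and the end shares, which are bound to move against each other because shares sum to 100%. In summed FPKM, which is not so bound, groups 1 to 3 had 34.6, 18.2 and 24.6 in controls and 17.3, 18.2 and 17.7 in knockouts, and groups 9 to 13 had 10.9, 6.60 and 8.11 against 15.9, 13.99 and 12.2. On that scale control 2 was at the knockout level for the front genes, while the end genes of every knockout stayed above every control. FPKM divides by library totals without the TMM factor, which was 0.891 in control 2 and 0.989 to 1.07 in the other libraries. The place of control 2 among the front sums therefore depends on the scaling.

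**Figure D4:**
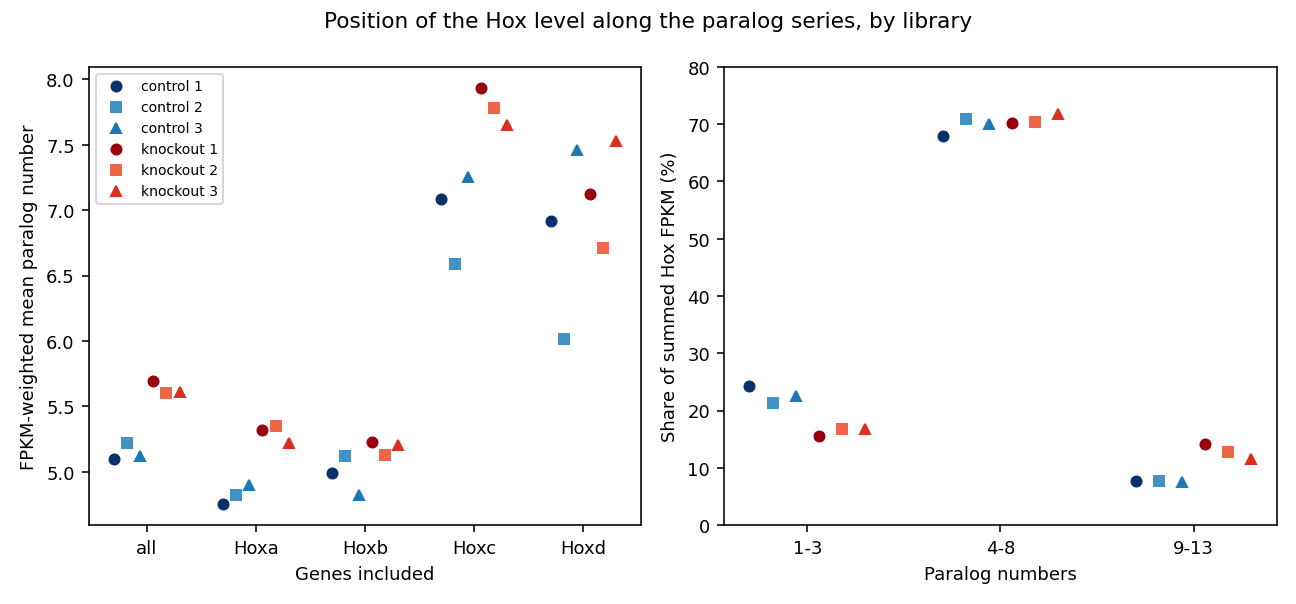
Left, FPKM-weighted mean paralog number of all 39 Hox genes and of each cluster, 1 point per library. Right, share of summed Hox FPKM (%) held by paralog groups 1-3, 4-8 and 9-13; knockouts (red) lie below controls (blue) for 1-3 and above them for 9-13.

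Ratios of 2 genes within a library do not depend on how libraries are scaled, and the pairs below were chosen after the values were seen. The FPKM ratio of Hoxa10 to Hoxa2 was 0.162, 0.164 and 0.143 in controls and 0.559, 0.491 and 0.424 in knockouts. The ratio of Hoxc10 to Hoxc4 was 0.964, 0.860 and 1.25 against 3.65, 2.90 and 3.04. Control 2 stood with the other controls in both. The Hoxb cluster gave the same order with a smaller gap, in a ratio of Hoxb9 to Hoxb2 of 0.537, 0.507 and 0.374 against 0.940, 1.02 and 0.698. No library of a known aortic segment was analysed here, so the values rank the libraries but name no segment, and the segment sampled and the genotype cannot be told apart in this design.

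Antisense and other noncoding genes of the clusters were described from a list of 10, of which 6 could be tested and 0 passed, with 3 at an unadjusted p under 0.05 in edgeR, beside 3.45% and 22.7% of all genes. Hotairm1, a noncoding RNA of the Hoxa cluster, had 110, 27 and 127 counts in controls and 149, 237 and 225 in knockouts, and a log2 fold change of 0.56 (edgeR adjusted p = 0.111). Hoxaas2, opposite to Hoxa3, had 108, 14 and 90 counts against 45, 51 and 83, and a value of -0.78 (edgeR adjusted p = 0.120). Hoxb3os, opposite to Hoxb2 and Hoxb3, had 121, 19 and 95 counts against 56, 72 and 66, and a value of -0.83 (edgeR adjusted p = 0.0719). Hoxaas2 and Hoxb3os thus had the sign of the front genes they overlap. Whether counting used strand is not given in the sources used here, so reads of a gene and its antisense partner cannot be separated.

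Within 10000 bases of the clusters 49 noncoding entries were listed, 12 were tested and 1 passed, Gm27861, which was singled out after its values were seen. It lies on the plus strand at chr6:52161042-52161255, inside the Hotairm1 gene. Its 214 bases are printed in GRCm38, with capitals for the 17 bases that an annotated Hotairm1 exon shares.
Gm27861: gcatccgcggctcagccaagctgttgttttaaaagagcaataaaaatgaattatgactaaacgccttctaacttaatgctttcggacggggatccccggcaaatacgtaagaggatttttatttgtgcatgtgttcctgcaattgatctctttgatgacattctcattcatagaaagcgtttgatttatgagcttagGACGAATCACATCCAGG
It was listed at 1 count in each control and at 18, 15 and 23 counts in the knockouts, with an edgeR adjusted p of 0.0404. If these are true counts, the ratio of the sums, corrected for library size, was 12.3, with an exact 95% interval of 3.99 to 61.4 for counting error only. However, 242 genes of the table were listed at exactly 1 count in all 6 libraries, and whether 1 is a count or a filled-in value is not known; if filled in, the ratio and its interval do not hold. The gene passed in 3 of the 11 other fits that tested it, which include 1 of the 6 with a library left out (edgeR adjusted p of 0.0291 to 0.186), and not in limma-voom (adjusted p = 0.0636).

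The other parts of the Hox system were described from lists. Hox proteins act with TALE homeodomain cofactors (Pbx, Meis and Prep proteins), and of 9 such genes 0 passed in edgeR and 3 had an unadjusted p under 0.05. In all genes those shares were 3.45% and 22.7%, the background for each list that follows. Retinoic acid and Cdx factors set Hox borders in the embryo: 10 of 18 such genes were tested, 0 passed and 2 had an unadjusted p under 0.05, and Cdx2 and Cdx4 were at 0 in every library. The retinoic acid receptor gene Rarb, which retinoic acid itself induces, was at 1.09, 0.872 and 1.18 FPKM in controls and 0.739, 0.602 and 0.733 in knockouts, without overlap, but did not pass (edgeR adjusted p = 0.109). Rxrb, which encodes a partner of these receptors, had the smaller p in the other direction, at 3.91, 2.997 and 3.45 against 4.56, 4.32 and 5.02 FPKM, and did not pass either (edgeR adjusted p = 0.0836). Both were named because they were under the unadjusted threshold.

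Polycomb and Trithorax proteins keep Hox genes silent or active, and in flies the gene for O-GlcNAc transferase is itself a Polycomb group gene. Of 24 such genes 23 were tested, 0 passed in edgeR and 5 had an unadjusted p under 0.05, beside 22.7% of all genes. Kdm6b, an enzyme that removes the repressive mark of Polycomb, was at 11.1, 11.5 and 9.84 FPKM in controls and 6.93, 7.65 and 6.59 in knockouts (edgeR adjusted p = 0.0706). Pcgf2, a subunit of Polycomb repressive complexes, was at 5.03, 3.88 and 2.62 against 7.22, 5.88 and 6.52 FPKM (edgeR adjusted p = 0.120). The groups did not overlap in Kdm6b or Pcgf2, and neither passed; they were singled out after their values were seen.

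Regulators of the aortic root, arch and heart field were also listed. Whether their levels mark a position along the adult aorta was not tested. Of 15 such genes 9 were tested, 0 passed in edgeR and 1 had an unadjusted p under 0.05, beside 22.7% of all genes. Of the 9 log2 fold changes 8 were below 0, with a median of -0.23, beside 51.3% and -0.01 for all genes. Gata4, Gata5, Hand1 and Nkx2-5 were at 0 counts in every library. Tbx18, the most abundant, was at 22.2, 15.5 and 18.4 FPKM in controls and 16.1, 13.6 and 18.0 in knockouts, and Tbx20 was at 0.249, 0.538 and 0.385 against 0.131, 0.190 and 0.197 FPKM (edgeR adjusted p = 0.148). Tbx20 was the 1 gene of this list under the unadjusted threshold and was named for that. Of the other homeobox genes listed, 7 of 10 were at 0 counts and 2 were tested, Meox1 and Meox2, of which 0 passed.

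Markers of other cell types were read beside the Hox genes. Of 7 tested brown adipocyte genes, 3 were called lower (Ucp1, Cox8b and Cox7a1), and all 7 log2 fold changes were below 0. The summed FPKM of the list was 84.1 to 127.8 in controls and 48.6 to 51.9 in knockouts, without overlap between the groups. Ucp1, the uncoupling protein of brown fat, was at 23.7, 21.1 and 25.7 FPKM against 5.06, 4.05 and 3.72 (edgeR adjusted p = 0.0023). Fat around the thoracic aorta of mice is brown-like and fat around the abdominal aorta more white-like, as background; the part of fat in the Hox values was not tested. Of 7 white adipocyte genes 0 passed, with sums of 389.8 to 705.6 in controls and 430.4 to 535.0 in knockouts. Smooth muscle had 1 of 8 called lower (Tagln), with sums of 7632 to 11517 in controls and 7376 to 9005 in knockouts. Of its 8 log2 fold changes 7 were below 0, beside 51.3% of all genes.

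Fibroblast genes (0 of 7 called) summed to 666.1 to 980.3 FPKM in controls and 639.4 to 664.4 in knockouts. The lowest control and the highest knockout were nearly level, and FPKM carries no TMM adjustment, so these sums do not separate the groups. Of the 7 log2 fold changes 4 were below 0, and the part of fibroblasts in the Hox values was not tested. Endothelial genes (0 of 8) summed to 90.4 to 108.5 FPKM in controls and to 166.8, 170.9 and 75.0 in knockouts, with knockout 3 below every control. The part of endothelium in the Hox values was not tested. Cardiomyocyte genes (0 of 7) summed to 10.2 to 11.1 against 5.87 to 12.2 FPKM, and macrophage and lymphocyte genes (0 of 4) to 49.2 to 202.9 against 119.6 to 142.8. Of 4 tested skeletal muscle genes 1 was called higher, Ckm, and the list summed to 1.65 to 5.59 FPKM against 14.02 to 21.03. Ckm made up most of the sum in knockouts but not in controls. The muscle myosin genes Myh1, Myh2 and Myh4 were at or near 0. Glia and neuron genes (0 of 5) summed to 4.57 to 7.48 against 5.65 to 9.62 FPKM. Kidney and adrenal genes (0 of 1) summed to at most 1.19 FPKM in any library, with 4 of the 8 at 0 in all 6, and mesothelium genes, none of which could be tested, to at most 0.987 FPKM.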

How the data were processed

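Total RNA of 6 aortic samples went into Illumina libraries, per the labels' protocols. CASAVA 1.8, HISAT2, SAMtools 1.3.1 and edgeR are named, per the submitters' processing notes. The read counter and its strand setting are not given. The authors deposited 1 table that holds, for each gene and library, the count of reads and the FPKM. Dividing one by the other gave the same gene length in all libraries, to a relative 1.4e-05 over 7705 genes with 50 counts or more in each. The notes name the build GRCm39, but 99.4% of 55141 shared gene identifiers, and all 39 Hox genes, had their GENCODE M21 positions in GRCm38, which are printed.

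Counts were tested in R 4.3.3 with edgeR 4.0.16 (filterByExpr, TMM, robust quasi-likelihood test) and Benjamini-Hochberg adjustment over 16139 genes at 0.05; DESeq2 1.42.0 and limma 3.58.1 (voom) were alternatives. The SE is the log2 fold change over the square root of F. Groups came from the genotype labels. Deposited FPKM served for levels between genes, shares and weighted paralog numbers. Replicates differed far beyond sampling noise (mean chi-square for each gene 14.1 to 136.2), and no library was treated as a copy. The test was checked on simulated counts. Per-library values are given for the 10 highest genes, the 3 smallest p, every called gene, and in each cluster the last gene with 10 counts in every library and those beyond it; from other lists, called genes and up to 4 of the highest. Members and lists were chosen with earlier results of these data known. Alternatives were other scalings, filters and tests, a replicate block and each library left out. Values of some single genes of the lists are not reported here; they remain in the counts, medians and sums, and the plots omit 1 gene.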

Additional observations from a re-analysis of the deposited data

How the results depend on the processing

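The number of Hox genes past the threshold was 1 with edgeR and 1 under RLE scaling, DESeq2, limma-voom and no filter. It was 0 with library totals only, 0 with at least 10 counts in every library (which leaves Hoxc10 untested) and 0 with the replicate block, and 0 to 1 with a library left out. All genes past the threshold numbered 557, against 193 with library totals only, 1491 with DESeq2, 28 with the replicate block and 7 (without control 1) to 911 (without control 2) with a library left out. The median Hox log2 fold change was -0.04, and ran from -0.0902 (without control 3) to 0.16 (without control 1) with a library left out. It was above 0 under limma-voom (0.06) and the block (0.04). The adjusted p of Hoxc10 was 0.0767 with library totals only and 0.111 with the block. The cause was not tested.

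The knockout minus control difference in weighted paralog number was 0.49, against 0.55 from raw counts, 0.34 over the 20 Hox genes that reach 10 counts in each library, and 0.46 to 0.52 with a library left out. The difference in the share of paralog groups 1 to 3 was -6.44 percentage points, against -8.38 from raw counts and -5.03 without Hoxa3, Hoxc5 and Hoxd3, an alternative added after seeing the data, and -7.12 to -5.66 with a library left out. For groups 9 to 13 it was 5.23 points, against 2.88 over those 20 genes and 4.56 to 5.89 with a library left out. Rescaling FPKM to a fixed sum cannot change these 3 differences by construction. Same-numbered libraries correlated at 0.05, 0.09 and -0.06 in their deviations from group means, so the numbers give no pairing. Low counts limit paralog groups 11 to 13 and all genes of control 2.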
